A study of Homo sapiens with 12 samples.

Results

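The HOXA genes described here are HOXA2, HOXA3, HOXA4, HOXA5, HOXA6, HOXA7, HOXA9, HOXA10, HOXA11 and HOXA13, taken by symbol as the listed members of the cluster on human chromosome 7. They are 10 of the 19974 protein-coding genes measured, and other genes of the cluster were not analysed here. Chromatin was profiled by CUT&RUN, in which an antibody guides a nuclease to release the DNA beneath a histone mark, in MKL-1 cells, a line established from a Merkel cell carcinoma. Cells received either 3 µM EPZ011989, which inhibits the H3K27 methyltransferase EZH2, or vehicle alone, so that both groups were in 1% ethanol. They were harvested on day 6 after renewal of the medium on day 3. Every culture was shared between H3K27me3, H3K4me3 and IgG antibodies at 1:100, with 30 min of nuclease digestion and an E. coli DNA spike-in of 200 pg/mL, which gave 12 libraries in 6 groups of 2. The replicates were repeated treatments of 1 cell line, so p-values measure only the spread between these cultures.

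HOX genes encode homeodomain transcription factors that give positions along the body axis their identity, and their order along the chromosome follows the order of their expression domains. Polycomb repressive complex 2, whose catalytic subunit is usually EZH2, places H3K27me3, a mark of repressed genes for which HOX clusters are a classic example. H3K4me3 marks the starts of active or poised genes. The measure used for each gene, its covered length, is the number of bases inside peaks within 2.5 kb of either gene end.

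The H3K27me3 lists held 363 and 22 peaks in EPZ011989, against 40782 and 44287 peaks in vehicle, over chromosomes 1 to 22 and X. The H3K4me3 lists held 23106 and 21086 peaks in EPZ011989 and 22726 and 23804 peaks in vehicle, with a median peak length of 1696.5 and 1609 bp in EPZ011989 and 1453 and 1354 bp in vehicle. H3K4me3 peaks covered 46.1 and 39.0 Mb of the genome in EPZ011989 and 41.0 and 42.0 Mb in vehicle, EPZ011989 replicate 1 being the highest. The IgG lists, the background of the assay, held 12 and 9 peaks in EPZ011989 and 38 and 4 peaks in vehicle, none of them in the HOXA span. As a check of the line, 10 of 10 Merkel and neuroendocrine marker genes had a H3K4me3 peak in each library, against 2 of 6 fibroblast markers and 1 of 5 lymphoid markers. Read numbers were not analysed, so the depth behind these lists is unknown.

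The sequences that bear on the results are those at the upper end of the cluster, where covered and uncovered starts lie side by side. HOXA9 and the lower HOXA10 start had H3K4me3 without H3K27me3, the upper HOXA10 start and HOXA13 had both marks in vehicle, and the HOXA11 start lay under H3K4me3 peaks in EPZ011989 and just outside them in vehicle. The 250 bases before each start are printed from RefSeq (GRCh38.p14, minus strand, 5′ to 3′), with CG dinucleotides in capitals.
HOXA9, chr7:27165538-27165787: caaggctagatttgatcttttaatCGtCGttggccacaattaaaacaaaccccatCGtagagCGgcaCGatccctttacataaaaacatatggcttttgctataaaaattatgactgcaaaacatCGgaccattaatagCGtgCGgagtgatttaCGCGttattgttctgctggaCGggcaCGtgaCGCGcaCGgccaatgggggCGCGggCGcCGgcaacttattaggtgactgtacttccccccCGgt
HOXA10 lower start, chr7:27174321-27174570: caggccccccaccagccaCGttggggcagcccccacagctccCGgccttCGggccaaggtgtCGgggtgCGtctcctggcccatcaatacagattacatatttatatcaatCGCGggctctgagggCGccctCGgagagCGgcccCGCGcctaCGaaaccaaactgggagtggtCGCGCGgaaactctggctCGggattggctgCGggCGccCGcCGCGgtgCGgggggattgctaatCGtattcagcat
HOXA10 upper start, chr7:27179862-27180111: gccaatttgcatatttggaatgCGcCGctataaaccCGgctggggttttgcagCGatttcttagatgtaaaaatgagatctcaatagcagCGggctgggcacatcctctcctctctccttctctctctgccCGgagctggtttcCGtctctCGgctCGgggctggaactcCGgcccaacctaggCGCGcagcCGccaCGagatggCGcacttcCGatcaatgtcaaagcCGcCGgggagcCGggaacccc
HOXA11, chr7:27185233-27185482: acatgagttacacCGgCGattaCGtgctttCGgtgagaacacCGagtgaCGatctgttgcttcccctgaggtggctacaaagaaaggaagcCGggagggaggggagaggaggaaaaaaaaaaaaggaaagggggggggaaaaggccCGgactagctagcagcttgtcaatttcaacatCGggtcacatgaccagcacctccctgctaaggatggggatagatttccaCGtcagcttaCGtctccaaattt
HOXA13, chr7:27200092-27200341: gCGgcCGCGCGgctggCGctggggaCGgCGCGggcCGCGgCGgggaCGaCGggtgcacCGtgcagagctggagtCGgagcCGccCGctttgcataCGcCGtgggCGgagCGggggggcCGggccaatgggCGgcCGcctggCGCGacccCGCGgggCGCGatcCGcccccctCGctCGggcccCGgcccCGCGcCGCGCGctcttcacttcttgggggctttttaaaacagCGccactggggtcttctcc
These stretches held 20, 24, 19, 11 and 40 CG dinucleotides in the order printed, against a median of 11 over 34941 promoters, and 97.8% of promoters had fewer than HOXA13. The promoter table matched 9 of the 10 members with 16 starts, 7 of them for HOXA3, and has no entry for HOXA5. The letters CCAAT, searched on both strands, were present before 9 of the 16 starts and in 32.0% of all promoters. TATAAA was present before 4 starts and in 10.8% of all promoters. TTTAT was present before 9 starts and in 32.8%, and its reverse complement overlaps TATAAA. Such a match describes letters and is not a binding site.

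In vehicle cells the HOXA genes fell into marked ends and an H3K27me3-free middle. The span from HOXA2 to HOXA13, chr7:27097854-27202591 with 2.5 kb beyond the outer gene ends, had 22.4 and 24.6 kb under H3K27me3 peaks in the vehicle libraries. A stretch of 69.9 kb, chr7:27106387-27176263, held none in either, and the whole of 6 genes lies inside it, namely HOXA3, HOXA4, HOXA5, HOXA6, HOXA7 and HOXA9. With EPZ011989 both libraries had 0 kb under H3K27me3 in the whole span. The group means were 0 kb in EPZ011989 and 23.5 ± 1.54 kb in vehicle (SD, n = 2 each), and an exact two-sided permutation test gave p = 0.333, the smallest that 2 against 2 libraries allow. H3K4me3 covered 54.1 and 47.9 kb of the same span in EPZ011989, against 46.3 and 46.8 kb in vehicle, a difference of 4.42 kb with EPZ011989 replicate 1 as the highest library, as it was over the genome; the part of that in the HOXA values was not tested. Without that library the difference was 1.32 kb and without replicate 2 it was 7.53 kb, and the exact permutation p was again 0.333.

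**Figure D1:**
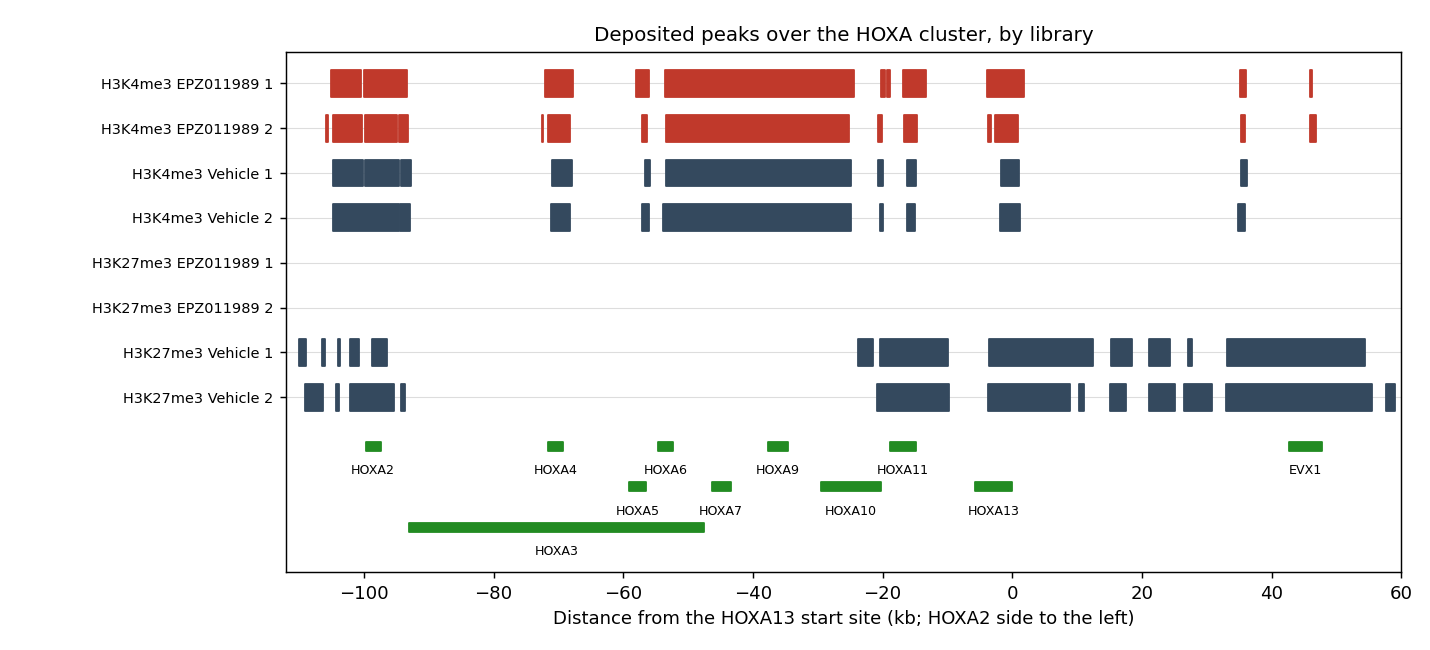
Peaks of each H3K27me3 and H3K4me3 library over the HOXA span, EPZ011989 libraries above vehicle libraries, in kb from the HOXA13 start along the horizontal axis, with genes in green beneath. H3K27me3 peaks lie at both ends in the vehicle libraries and are listed nowhere in the span in the EPZ011989 libraries, while the H3K4me3 peak of 28.4 to 29.1 kb over the middle is present in all 4.

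H3K27me3 near the genes was highest at HOXA11, HOXA13, HOXA2 and HOXA10 in vehicle, and no member had any in EPZ011989. HOXA11 (chr7:27181157-27185232), a regulator of forearm and kidney development, had 0 and 0 bp in EPZ011989 and 8060 and 8491 bp in vehicle. HOXA13 (chr7:27194364-27200091), which patterns digits and the genital tract, had 0 and 0 bp in EPZ011989 and 5360 and 5450 bp in vehicle. The vehicle values of each gene lay close together and far from those of EPZ011989. HOXA10 (chr7:27170605-27179861), needed in the uterus and in blood cell formation, had 0 and 0 bp in EPZ011989 against 3874 and 3120 bp in vehicle. HOXA2 (chr7:27100354-27102683), which specifies the second pharyngeal arch, had 0 and 0 bp in EPZ011989 against 3495 and 6746 bp in vehicle, the widest gap between replicates among these genes. HOXA3 (chr7:27107010-27152583), required for thymus and parathyroid formation, had 0 and 0 bp in EPZ011989 and 0 and 739 bp in vehicle, so its groups overlapped. HOXA4, HOXA5, HOXA6, HOXA7 and HOXA9 had 0 bp in all 4 libraries and could not be tested.

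In limma over 9601 genes with H3K27me3 in any library, covered length fell in EPZ011989 at 3 of the 5 HOXA genes tested, against 60.2% of all genes tested, with 0% called higher. All 5 members entered the test through vehicle libraries alone, with 0 bp in both EPZ011989 libraries, so this filter fixed the direction and nothing particular to the members is read from the count. The changes were -8275.5 ± 209 bp at HOXA11 (SE, limma, Benjamini-Hochberg adjusted p = 0.00148), -5405 ± 42.1 bp at HOXA13 (adjusted p = 3.93e-05) and -3497 ± 335 bp at HOXA10 (adjusted p = 0.00863). HOXA2, at -5120.5 ± 1444 bp (SE, limma adjusted p = 0.0778), and HOXA3, at -369.5 ± 328 bp (limma adjusted p = 0.361), did not pass the threshold of 0.05. Peaks listed in no EPZ011989 library but in both vehicle libraries were found at 4 members, HOXA2, HOXA10, HOXA11 and HOXA13, and at 76.5% of the genes tested. The EPZ011989 values are all at the floor of 0, which gives that group no spread. Without EPZ011989 replicate 1 or 2 the limma calls of HOXA10 (adjusted p = 0.0851 and 0.0855) and HOXA11 (adjusted p = 0.0622 and 0.0620) were lost, and quantile normalization lost that of HOXA10 (adjusted p = 0.130). Under quantile normalization limma also called HOXA3 higher in EPZ011989, by 966 bp (adjusted p = 0.0073), although both of its EPZ011989 values are 0 bp as deposited.

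**Figure D2:**
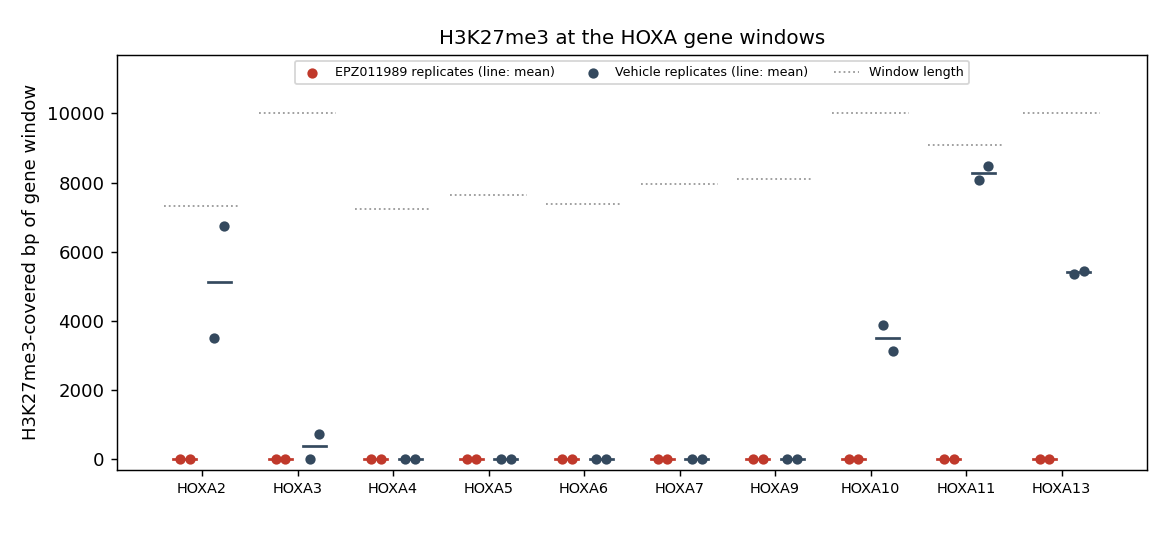
H3K27me3 covered length in bp at each HOXA gene, a point per library with the mean as a line and the window length dotted, EPZ011989 left of vehicle. All EPZ011989 points are at 0, and vehicle points reach 8060 and 8491 bp at HOXA11.

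The strength of the vehicle peaks differed along the cluster. Within each list, the authors' fold was 6.45 and 7.66 for the peak over HOXA11 and the upper HOXA10 start and 5.06 and 5.29 for that over HOXA13. The HOXA11 peak was 10.6 and 11.1 kb long and ranked 2644 of 40782 and 1983 of 44287 by fold, and the HOXA13 peak was 16.0 and 12.5 kb long. At HOXA2 the folds were 3.41 and 3.31 in vehicle replicate 1 and 3.30 in replicate 2. The lowest fold listed was 4.37 and 4.36 in the EPZ011989 lists, against 2.82 and 2.67 in the vehicle lists. The peak over HOXA11 and the upper HOXA10 start and the peak over HOXA13 lie above the lowest fold listed in EPZ011989. The HOXA2 peaks lie under it, as do the peaks at HOXA3 in vehicle replicate 2, with folds of 3.30 and 3.08. A further HOXA10 peak of 2282 bp in vehicle replicate 1, with a fold of 3.18, lies under it too, within the 3874 bp of that gene. Whether this limit of the lists has a part in the results at HOXA2, HOXA3 and HOXA10 was not tested. Folds of different lists may not share a scale, since depth and any use of the spike-in are unknown.

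H3K4me3 was present at all 10 HOXA genes in all 4 libraries, a state shared by 93.2% of the 13796 genes tested and by 64.4% of all 19974 genes. The gene windows of HOXA7 and HOXA9 were covered from end to end, with 7960 bp and 8100 bp in each library, and only 0.058% of genes tested, 8 in all, were covered in this way. HOXA9 (chr7:27162438-27165537) sustains blood stem cells and is a leukaemia gene, and HOXA7 (chr7:27153716-27156675) is its neighbour. A single H3K4me3 peak ran across both. It was 29.1 and 28.4 kb long in EPZ011989 and 28.4 and 29.0 kb long in vehicle, and ranked 3 and 2 by length in the EPZ011989 lists and 3 and 3 in the vehicle lists. Its lower edges lay within 580 bp of each other and its upper edges within 666 bp, so the extent did not separate the groups. The 28.2 kb common to all 4 libraries, chr7:27146748-27174970, held 6 starts of 5 members and 0 bp of H3K27me3 in any library.

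The highest point of this long peak, its summit in the authors' lists, lay elsewhere in the 2 groups. It was at 27170078 and 27170033 in EPZ011989, 45 bp apart, and at 27156103 and 27152062 in vehicle, 4041 bp apart. The nearest member start to the EPZ011989 summits was the lower HOXA10 start, 4242 and 4287 bp away. These summits also lay 515 and 470 bp upstream of the MIR196B hairpin. The vehicle summits were 572 bp from the HOXA7 start and 521 bp from a HOXA3 start. The mean difference was 16.0 kb and the groups did not overlap, with an exact two-sided permutation p of 0.333, the smallest possible. How often the summits of other long peaks separate the groups was not computed, so nothing particular to this peak is read from the difference. MIR196B (chr7:27169480-27169563, minus strand) encodes a microRNA known to target HOX transcripts, and its 84 bp hairpin was covered by H3K4me3 and free of H3K27me3 in every library. Its 5p mature form is printed from RefSeq with the seed, bases 2 to 8, in capitals.
hsa-miR-196b-5p: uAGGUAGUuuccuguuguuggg

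H3K4me3 covered length was larger in both EPZ011989 libraries than in both vehicle libraries at 3 of the 10 HOXA genes, HOXA4, HOXA11 and HOXA13, against 24.4% of all genes tested. HOXA11 had 4672 and 2826 bp in EPZ011989 and 2200 and 1723 bp in vehicle. In EPZ011989 replicate 2, 720 bp of this was a weak peak at the upper HOXA10 start, with a fold of 3.56. A stricter q of 0.001 removes that peak and leaves 2106 bp, below vehicle replicate 1, so the HOXA11 groups then overlap. The HOXA11 difference at that q was 1205 bp. HOXA13 had 5039 and 3771 bp in EPZ011989 and 2832 and 3030 bp in vehicle. HOXA4 (chr7:27128525-27130757), which patterns neck vertebrae in the mouse, had 4245 and 3602 bp in EPZ011989 and 3204 and 2860 bp in vehicle. At each of the 3 genes EPZ011989 replicate 1 was the highest library, and none exceeded both vehicle values by 1000 bp in both EPZ011989 libraries, as 1.07% of genes did. The limma differences were 1787.5 ± 616 bp at HOXA11 (SE, adjusted p = 0.442), 1474 ± 439 bp at HOXA13 (adjusted p = 0.382) and 891.5 ± 293 bp at HOXA4 (adjusted p = 0.420). Without EPZ011989 replicate 1 these differences were 864.5 bp at HOXA11, 840 bp at HOXA13 and 570 bp at HOXA4, and without replicate 2 they were 2710.5, 2108 and 1213 bp. With windows of 1000 bp the HOXA13 difference was -60 bp. None passed the adjusted threshold, and limma called 0 of 13796 genes in either direction (0% called). At an unadjusted limma p under 0.05, these 3 members were higher, against 1160 or 8.41% of all genes, and 0 members were lower, against 204 or 1.48%. With no filter on genes without peaks, HOXA11 (limma adjusted p = 0.000552) and HOXA13 (limma adjusted p = 0.00044) passed the threshold. That fit called 491 of 19974 genes higher and 32 lower. It adds genes with 0 bp in all 4 libraries, which have no spread, and their part in these calls was not tested. No member had a H3K4me3 peak in both EPZ011989 libraries alone, as 1.33% of genes did.

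The other members did not move one way. Both EPZ011989 values lay below both vehicle values at 2 members, against 12.7% of genes tested. HOXA2 had 6766 and 6906 bp in EPZ011989 and 7003 and 7330 bp in vehicle, and HOXA3 had 7288 and 7004 bp in EPZ011989 and 7511 and 7426 bp in vehicle. Neither passed limma (adjusted p = 0.858 and 0.865), with differences of -330.5 bp at HOXA2 and -322.5 bp at HOXA3. Part of the HOXA2 length came from a peak with its summit at 27096167 or 27096170 in each library, outside the HOXA2 window. At HOXA5 (chr7:27141052-27143681), which acts in lung development in the mouse, the groups overlapped, with 1919 and 878 bp in EPZ011989 and 814 and 1066 bp in vehicle. HOXA6 (chr7:27145396-27147774) had 4852 and 4538 bp in EPZ011989 and 4341 and 5159 bp in vehicle, and HOXA10 had 6118 and 5721 bp in EPZ011989 and 5771 and 5420 bp in vehicle, so these groups overlapped too. The median difference over the 10 members was 162 bp, against 52 bp over all 13796 genes. The windows of 5 pairs of members share bases, so neighbours are not independent.

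**Figure D3:**
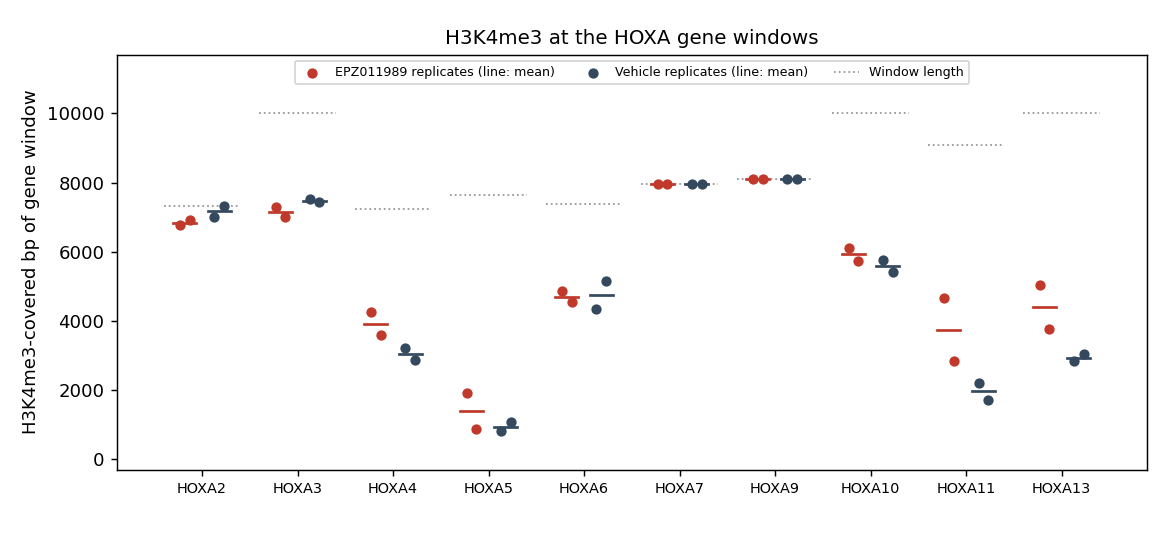
H3K4me3 covered length in bp at each HOXA gene, a point per library with the mean as a line and the window length dotted, EPZ011989 left of vehicle. Both EPZ011989 points are above both vehicle points at HOXA4, HOXA11 and HOXA13, and all points coincide at HOXA7 and at HOXA9.

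Near the HOXA11 start the H3K4me3 peak was 3555 and 2106 bp long in EPZ011989 and 1430 and 1304 bp long in vehicle. The EPZ011989 peaks extended past the vehicle peaks at both edges. The start lay inside a H3K4me3 peak in both EPZ011989 libraries, which reached 1605 and 197 bp upstream of it and 1949 and 1908 bp into the gene. In vehicle the nearest peak stopped 21 and 146 bp short of the start. The 250 upstream bases printed above had 250 and 197 bp under H3K4me3 in EPZ011989 and 0 and 0 bp in vehicle, and 0 and 0 bp under H3K27me3 in EPZ011989 and 250 and 250 bp in vehicle. At HOXA13 the peak held the start in every library and reached 3927 and 2695 bp into the gene in EPZ011989, against 1812 and 1834 bp in vehicle. At HOXA4 it reached 2707 and 2221 bp into the gene in EPZ011989 and 1704 and 1780 bp in vehicle, with no H3K27me3 there in any library. EPZ011989 H3K4me3 peaks were also longer over the whole lists, and their part in these extents was not tested. Of the 16 starts, 11 and 11 lay in a H3K4me3 peak in EPZ011989 and 10 and 10 in vehicle, the 5 lower HOXA3 starts lying in none. For H3K27me3 the counts were 0 and 0 in EPZ011989 and 4 and 4 in vehicle, namely HOXA2, the upper HOXA10 start, HOXA11 and HOXA13.

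**Figure D4:**
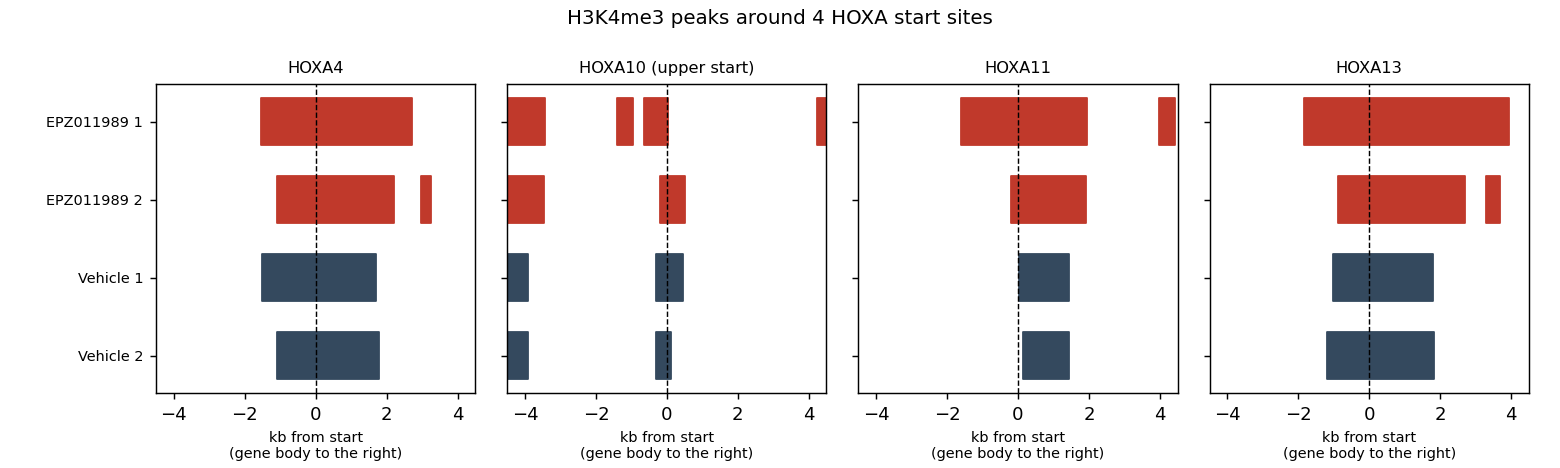
H3K4me3 peaks of each library (bars) around the starts of HOXA4, HOXA10 (upper), HOXA11 and HOXA13, in kb from the start (dashed line) with the gene to the right, EPZ011989 libraries above vehicle libraries. The HOXA11 start is reached in EPZ011989 and missed by 21 and 146 bp in vehicle, and the HOXA13 peak runs 3927 and 2695 bp into the gene in EPZ011989 and 1812 and 1834 bp in vehicle.

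Both marks lay on the same bases at the ends of the cluster in vehicle, over 8249 and 12061 bp of the span. HOXA2 had 3495 and 6746 bp of such bases, HOXA13 had 2832 and 3030 bp, HOXA11 had 1922 and 1723 bp and HOXA10 had 492 and 419 bp. At HOXA13 and HOXA2 the overlap equals the whole H3K4me3 and the whole H3K27me3 covered length, in that order. Bulk libraries cannot tell cells with both marks from a mixture of cells with either. Bases under H3K4me3 in both EPZ011989 libraries only came to 2553 bp of the span, and 71.5% of them were under H3K27me3 in both vehicle libraries, against 55.3% of such bases in the genome. They included 861 and 390 bp at HOXA13, of which 861 and 288 bp were on vehicle H3K27me3. Others were 458 and 218 bp at HOXA11, all on vehicle H3K27me3, and 441 bp at HOXA4, none of it on vehicle H3K27me3. Bases under H3K4me3 in both vehicle libraries only came to 497 bp, with 0% on vehicle H3K27me3, against 3.18% of such bases in the genome. These shares are descriptions with no test.

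Beyond the cluster, EVX1, a homeobox gene 42.7 kb from HOXA13, had 0 and 0 bp of H3K27me3 in EPZ011989 and 10002 and 10002 bp in vehicle, its whole window. It had 399 and 963 bp of H3K4me3 in EPZ011989 and 0 and 0 bp in vehicle. SKAP2, an adaptor protein gene 236 kb away on the HOXA2 side, had 0 and 0 bp of H3K27me3 in EPZ011989 and 250 and 2058 bp in vehicle. Its H3K4me3 values overlapped, with 3563 and 2994 bp in EPZ011989 and 3136 and 2813 bp in vehicle. The share of the HOXA span under H3K27me3 was 0% and 0% in EPZ011989 and 21.4% and 23.5% in vehicle. For HOXB these shares were 12.2% and 0% in EPZ011989 and 100% and 100% in vehicle. For HOXC they were 0% and 0% in EPZ011989 and 78.2% and 80.4% in vehicle, and for HOXD 0% and 0% in EPZ011989 and 44.6% and 46.6% in vehicle. HOXA thus had the lowest vehicle share of the 4 clusters and the highest H3K4me3 share, 51.6% and 45.7% in EPZ011989 and 44.2% and 44.7% in vehicle, and its EPZ011989 replicate 2 lay close to vehicle. For HOXD the H3K4me3 share was 39.0% and 31.7% in EPZ011989 and 26.8% and 28.3% in vehicle. For HOXC it was 25.9% and 19.7% in EPZ011989 and 14.6% and 15.5% in vehicle, and for HOXB 1.16% and 0.343% in EPZ011989 and 0% and 0.306% in vehicle. Both EPZ011989 shares were above both vehicle shares in all 4 clusters. The gaps were narrowest at HOXB, 0.343% against 0.306%, where little is covered, and at HOXA, 45.7% against 44.7%. By gene window, 24.4% of all genes tested were also higher in both EPZ011989 libraries, and no such share was computed for spans. The longest H3K4me3 peak was 7.52 and 3.61 kb in EPZ011989 and 3.71 and 3.56 kb in vehicle at HOXC, and 6.42 and 6.47 kb in EPZ011989 and 6.12 and 6.72 kb in vehicle at HOXD. Differences between clusters were not tested.

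**Figure D5:**
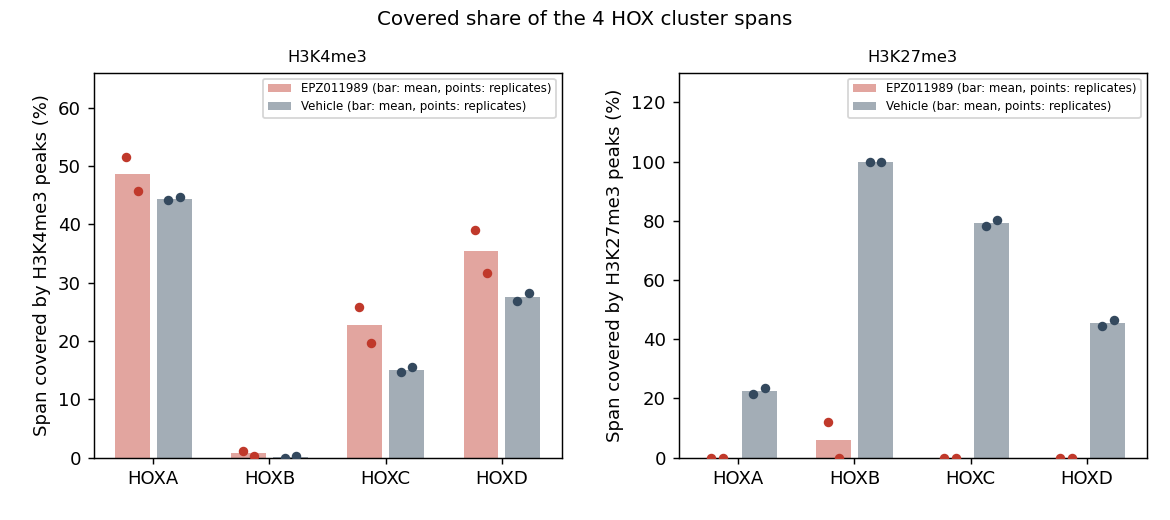
Percent of each HOX cluster span under H3K27me3 and H3K4me3 peaks, with bars for the mean and a point per library, EPZ011989 left of vehicle. HOXA has 21.4% and 23.5% under H3K27me3 in vehicle, below the other clusters, and 0% in both EPZ011989 libraries.

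Genes that act with or upstream of HOX proteins were counted in the same way. The EPZ011989 H3K27me3 lists held only 363 and 22 peaks, so entry to that fit came mostly through vehicle libraries. As for the members, this largely fixed the direction, and nothing particular to these gene groups is read from their H3K27me3 counts. H3K27me3 fell in limma at 21 of 25 other HOX genes tested, 5 of 8 HOX cofactors, 5 of 9 upstream regulators and 6 of 7 Polycomb genes, against the 60.2% of all genes tested, and was called higher at none, against 0% of all genes. H3K4me3 was called at none of them, but both EPZ011989 values were above both vehicle values at 9 of 24 other HOX genes, 2 of 8 cofactors, 2 of 12 regulators and 8 of 13 Polycomb genes, against 24.4% of all genes. Both were below at 0 of 24 other HOX genes, 1 of 8 cofactors, 4 of 12 regulators and 0 of 13 Polycomb genes, against 12.7%. HOXD11, a posterior gene like HOXA11, had 3850 and 3950 bp in EPZ011989 and 874 and 1395 bp in vehicle. CBX8, a chromodomain subunit of Polycomb repressive complex 1, had 5516 and 6166 bp in EPZ011989 and 3296 and 4599 bp in vehicle. The genes whose 8 values lay nearest to the mean of the HOXA genes, by Euclidean distance, were RTN4RL2 at 829 bp and RASIP1 at 857 bp.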

How the data were processed

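CUT&RUN libraries of MKL-1 cells were deposited as 1 peak list per library on hg38. MACS2 2.1.1.20160309, SAMtools 0.1.19, Bowtie2 2.2.9 and FastQC are named, per the submitters' processing notes; their thresholds, the control library, the treatment of duplicates and any use of the spike-in are not given in the sources used here. The authors deposited for each peak a fold, a ratio over the local background, with a −log10 p and a −log10 q and a score. Depth is unknown. Peaks of H3K27me3 are broad and those of H3K4me3 and IgG narrow. The deposited folds are the authors' own. Peaks were ranked by fold only within a list, but vehicle folds were also set beside the lowest folds of the EPZ011989 lists.

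Bases inside peaks were counted within 2500 bp of both ends of 19974 protein-coding genes of a GRCh38.p14 table, with no scaling between libraries. Genes that any of a mark's 4 libraries covered entered the limma fit (R 4.3.3, limma 3.58.1, robust, with trend, Benjamini-Hochberg, threshold 0.05). The fit was also run on simulated data with the vehicle replicate spread in both groups. Real EPZ011989 H3K27me3 values are nearly all 0, so that simulation does not bear on the H3K27me3 calls. Span values were compared by exact two-sided permutation tests. Peak files were handled in Python 3.11.15 with pandas 2.3.3 and numpy 2.4.6. The replicate number names a culture within a treatment, so the fit has no block. Replicate deviations of EPZ011989 and vehicle had a correlation of 0.0162 for H3K27me3 and -0.0296 for H3K4me3. With EPZ011989 H3K27me3 values nearly all 0, the H3K27me3 correlation cannot show whether same-numbered replicates deviate together. Named genes were to be all 10 members, their neighbours, the 5 genes of nearest profile and, in each other list, the 3 with the largest H3K4me3 difference among those with both EPZ011989 values above both vehicle values; a few of the last kinds are given. Members and lists were chosen with earlier results of these data known. Alternatives were other windows, a stricter q of 0.001, a log2 scale with a pseudocount of 100 bp, quantile normalization, no filter, a replicate block and leaving out each library.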

Additional observations from a re-analysis of the deposited data

How the results depend on the processing

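With 0 kb in both EPZ011989 libraries, the H3K27me3 difference over the HOXA span could not reverse in these alternatives, so only its size is informative. It ran from -24.6 to -22.4 kb without single libraries. It was -17.0 kb with a stricter q, -19.2 kb with no margin and -37.4 kb with a 20 kb margin. The H3K4me3 difference ran from 1.32 to 7.53 kb without single libraries. EPZ011989 and vehicle samples share only a replicate number; with the replicate block, differences stayed -23.5 and 4.42 kb with exact permutation p = 0.5 each, and limma called 4555 genes and 3 members lower for H3K27me3. Genes called lower for H3K27me3, 5784 in all, numbered 3410 with start windows only, 3598 with quantile normalization (3301 then higher) and 3210 to 8885 without single libraries; members numbered 1 to 5. Genes called higher for H3K4me3, 0 in the main fit, numbered 2 with 1000 bp windows (4 then lower) and 35 with 5000 bp windows. They numbered 491 of 19974 with no filter (32 then lower) and 89 with quantile normalization (7 then lower). With no filter 2 members were called, HOXA11 (limma adjusted p = 0.000552) and HOXA13 (limma adjusted p = 0.00044). Without single libraries, 3 to 5 members and 4018 to 8014 genes lay above in EPZ011989, a count added after seeing the data. Signs reversed for HOXA3 H3K27me3 with quantile normalization (966 bp, called higher), and for H3K4me3 at HOXA13 with 1000 bp windows (-60 bp), HOXA6 with 5000 bp windows (343.5 bp), HOXA2 with start windows (35 bp) and HOXA10 with a stricter q (-258.5 bp). Without single libraries HOXA5 ran from -62 to 979 bp and HOXA6 from -464 to 354 bp. HOXA2 H3K27me3 was called on the log2 scale (limma adjusted p = 0.00254). The causes were not tested. H3K27me3 with no filter could not be fitted, since 11736 of 19974 genes had no spread. Fits without a vehicle library rest on the spread of EPZ011989 libraries that are nearly all 0. Without depth, short or weak peaks cannot be told from missed ones.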
